A study of Homo sapiens with 4 samples.

Results

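The ligands of the epidermal growth factor (EGF) family and the ERBB receptors they bind were followed in a human lung cancer line before and after expression of p53. The genes were chosen by name, 10 in all: the ligand genes TGFA, EGF, AREG, EREG, HBEGF and BTC and the receptor genes EGFR, ERBB2, ERBB3 and ERBB4. Of these, 9 had a probe set that the platform annotation gives to that gene alone, among 18417 genes measured this way. AREG was not analysed here. The cells were H1299, derived from a non-small cell lung carcinoma and without p53 of their own, with a stably integrated tet-on mouse p53 gene. Uninduced cells (2 arrays) were collected before induction, and induced cells (2 arrays) after doxycycline, which turns tet-on genes on, at 0.5 µg/mL for 24 hours. All cells were grown in DMEM with 10% tet-free serum. The labels call both arrays of a group technical replicates, so the tests measure the spread between arrays and not between cultures. They do not say whether the line is a single clone, and no sample had doxycycline without the construct, so doxycycline and p53 cannot be told apart. The labels also give no untreated cells kept for the same 24 hours, so time in culture cannot be told apart from induction either.

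EGF family ligands are made as membrane-bound precursors and released by metalloproteases. TGFA, EGF and AREG bind EGFR, while HBEGF, BTC and EREG bind both EGFR and ERBB4. Bound receptors pair with each other: ERBB2 has no known ligand and serves as the preferred partner, ERBB3 has a weak kinase and binds neuregulins, and ERBB4 binds neuregulins with an active kinase. The pairs feed the RAS-ERK and PI3K-AKT pathways, and EGFR is a well known driver of lung adenocarcinoma.

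ERBB4 changed most among these genes and EGFR next, both upward. TGFA and EGF were also higher on the induced arrays, by smaller amounts. HBEGF, EREG, BTC, ERBB2 and ERBB3 did not pass the test. Thus 2 of 5 measured ligands and 2 of 4 receptors rose and 0 fell. A gene was called where limma gave a Benjamini-Hochberg adjusted p, over all genes, below 0.05. The share called, 44.4%, was close to that of the whole array in either direction, where 45.1% of all genes passed. All 4 calls were upward, whereas 20.6% of all genes passed upward and 24.6% downward. With 9 genes measured, the count of members is no result in itself. Without uninduced array 1, or without uninduced array 2, 2 of the 4 genes were called. The median log2 fold change was 0.21 over the 9 genes and 0.00 over all genes.

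The 4 genes that rose start from different promoters. RefSeq windows of GRCh38.p14, 250 bases before to 50 bases after the start, are printed 5′ to 3′ for them because these genes moved in the same direction. Capitals mark a GC box (GGGCGG or its reverse complement), a CCAAT box (CCAAT) and a TATA box (TATAAA), searched on both strands.
ERBB4 (chr2:212538753-212539052, strand -): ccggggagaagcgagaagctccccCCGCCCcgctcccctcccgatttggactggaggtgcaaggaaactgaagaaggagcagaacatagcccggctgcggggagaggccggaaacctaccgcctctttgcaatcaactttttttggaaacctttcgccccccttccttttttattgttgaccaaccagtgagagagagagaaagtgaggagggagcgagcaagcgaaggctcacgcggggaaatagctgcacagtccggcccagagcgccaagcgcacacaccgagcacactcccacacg
EGFR (chr7:55018767-55019066, strand +): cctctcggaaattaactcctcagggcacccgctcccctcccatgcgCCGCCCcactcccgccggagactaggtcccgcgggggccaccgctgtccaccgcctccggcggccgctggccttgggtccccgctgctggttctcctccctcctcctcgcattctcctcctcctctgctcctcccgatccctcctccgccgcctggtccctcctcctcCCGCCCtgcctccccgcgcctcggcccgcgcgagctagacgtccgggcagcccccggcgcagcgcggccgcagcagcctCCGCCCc
TGFA (chr2:70553777-70554076, strand -): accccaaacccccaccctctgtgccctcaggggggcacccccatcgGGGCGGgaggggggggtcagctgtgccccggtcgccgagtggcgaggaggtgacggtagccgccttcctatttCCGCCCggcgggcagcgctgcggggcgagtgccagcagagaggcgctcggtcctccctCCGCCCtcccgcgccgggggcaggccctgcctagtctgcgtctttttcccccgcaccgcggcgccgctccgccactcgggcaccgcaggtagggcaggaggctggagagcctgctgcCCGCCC
EGF (chr4:109912633-109912932, strand +): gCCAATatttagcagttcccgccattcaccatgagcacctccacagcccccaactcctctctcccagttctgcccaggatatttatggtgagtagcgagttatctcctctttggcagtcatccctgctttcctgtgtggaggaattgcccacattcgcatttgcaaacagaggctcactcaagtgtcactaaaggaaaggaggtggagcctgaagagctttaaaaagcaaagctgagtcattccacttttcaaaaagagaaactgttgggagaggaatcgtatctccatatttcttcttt

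The EGFR and TGFA windows were 75.3% G and C, higher than 91.0% of 35116 windows of the same length, with 3 and 4 GC boxes. The ERBB4 window, at 59.0%, lay near the median of all windows (58.7%) and held 1 GC box. The EGF window was the least GC-rich of the 4, at 46.7%, with 0 GC boxes, 1 CCAAT box and 1 AP-1 site (TGANTCA). Of all windows, 45.0% hold a GC box, 34.6% a CCAAT box, 11.5% a TATA box and 7.71% an AP-1 site. None of the 4 windows printed has TATAAA. The p53 half-site, searched by name on both strands, matched in 0 of these 4 windows and in 6.63% of all windows, which says only that its letters are not in these windows. The second windows that RefSeq gives differed from those printed: that of EGFR was 42.0% G and C with 0 GC boxes, 2 TATA boxes and 2 AP-1 sites, and that of TGFA 63.0% with 0 GC boxes. Which start the cells used was not tested. Of the 10 genes, 9 matched the RefSeq windows by symbol (ERBB3 did not). The order of EGFR and ERBB4 by GC content thus depends on the EGFR window taken. None of these motifs, nor the E-box (CANNTG) or the cAMP response element (TGACGTCA), found in 68.7% and 1.85% of all windows, was common to all 4 windows printed. Overlapping matches were each counted.

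The labels were first checked on p53 targets. CDKN1A, which encodes the cell cycle inhibitor p21, rose 10.8-fold, and MDM2, the ubiquitin ligase of p53, rose 7.39-fold. KRT18 and VIM, filament genes of epithelial and mesenchymal cells, were at 11.14 and 12.72 log2 units on the uninduced arrays, while the epithelial adhesion genes CDH1 and EPCAM and the lung lineage factor gene NKX2-1 were at 5.885, 5.445 and 6.18. Of 7 epithelial and mesenchymal genes of this kind, KRT8 rose and VIM and CDH2 fell. Values are log2 units of the RMA level, the deposited summary of a probe set's brightness. Of 18 markers of blood, fibroblast and endothelial cells, 3 rose (CD3E, ITGAM and TEK) and 0 fell. Their median level was 6.48 uninduced and 6.49 induced. The mean level of 7 blood cell markers was 7.02 to 7.09 on the uninduced and 7.27 to 7.38 on the induced arrays, that of 11 fibroblast and endothelial markers 5.96 to 6.02 and 6.00 to 6.10, and that of 8 lung epithelium markers 6.47 to 6.53 and 6.74 to 6.92. Among the lung markers 2 rose, SCGB1A1 4.08-fold (means 6.50 uninduced and 8.53 induced) and SFTPC 1.23-fold. Over all genes, 20.6% were called higher and 24.6% lower, so the counts of markers called are no result about cell types. The part of these markers in the results was not tested. RMA levels have no zero, so no marker can be called absent. A gene whose level lies under 6.48 is described below as dim, since markers of cell types foreign to the line reach that level. That cut is only their uninduced median, and some markers lay higher, such as COL1A1 at 7.955 and CD68 at 11.74 uninduced. A level above 6.48 therefore does not by itself show that a gene is expressed.

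**Figure D1:**
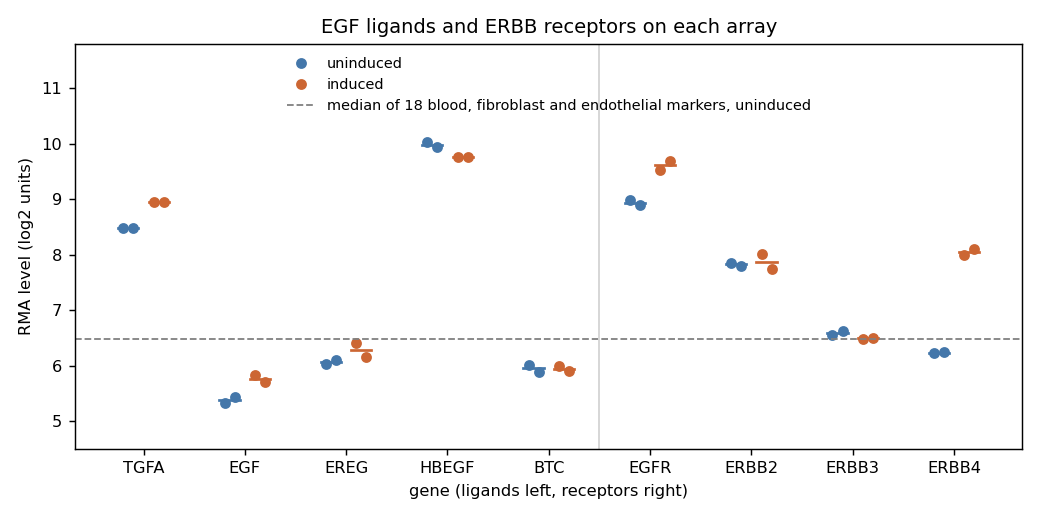
RMA level in log2 units on each array for the 5 measured ligands (left) and 4 receptors (right). Points are arrays, short bars are group means, blue is uninduced and orange induced, and the dashed line is the uninduced median of 18 markers of other cell types (6.48). ERBB4 moves from under the line to 8.05, and EGF, EREG and BTC stay under it in both groups.

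Among the ligands, TGFA, the transforming growth factor that binds EGFR and is made by many carcinomas, had levels of 8.49 and 8.48 on the uninduced arrays and of 8.95 and 8.95 on the induced ones. Both induced arrays lay above both uninduced ones. TGFA rose 1.38-fold (log2 fold change 0.465, SE 0.081, adjusted p = 0.00216 in limma's test). That call ended without uninduced array 1 (adjusted p = 0.0502 in limma's test) and without uninduced array 2 (0.0529), and against a fold of 1.2 in limma's treat test (0.065).

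EGF, the founding ligand of the family, was dim in both groups. It had levels of 5.33 and 5.44 uninduced and 5.83 and 5.70 induced, without overlap. EGF rose 1.30-fold (log2 fold change 0.38, SE 0.092, adjusted p = 0.0113 in limma's test). The call ended without uninduced array 1 (adjusted p = 0.146 in limma's test), uninduced array 2 (0.0846) or induced array 1 (0.0854), and against a fold of 1.2 in limma's treat test (0.328). Both group means lay under the markers' median of 6.48, and the part of array background in this fold was not tested.

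HBEGF, the heparin-binding ligand, went the other way in value. Its levels were 10.03 and 9.94 uninduced and 9.77 and 9.76 induced, so that both induced arrays lay below both uninduced arrays. The log2 fold change was -0.22 (SE 0.084, 95% interval -0.42 to -0.022, adjusted p = 0.0709 in limma's test), which did not pass. It passed with an intensity trend and robust prior (adjusted p = 0.00855 in limma's test) and without genes under a mean level of 6.78, the 40th percentile over all rows (0.0372).

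EREG, epiregulin, and BTC, betacellulin, were dim in both groups. EREG had levels of 6.03 and 6.10 uninduced and 6.40 and 6.15 induced, with a log2 fold change of 0.21 (95% interval -0.039 to 0.46, adjusted p = 0.158 in limma's test). Its induced arrays were both higher, but they lay further apart than the lower of them lay from the uninduced arrays. BTC had levels of 6.02 and 5.88 uninduced and 5.99 and 5.90 induced. These overlapped, and the log2 fold change was -0.0050 (95% interval -0.22 to 0.21, adjusted p = 0.975 in limma's test).

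Among the receptors, ERBB4, the neuregulin receptor with an active kinase, had levels of 6.23 and 6.24 on the uninduced arrays and of 7.99 and 8.11 on the induced arrays. The groups stood far apart compared with the spread inside each (SD 0.0071 and 0.085). ERBB4 rose 3.52-fold (log2 fold change 1.815, SE 0.087, 95% interval 1.61 to 2.02, adjusted p = 3.6e-06 in limma's test). It was the only member at least 2-fold changed, against 13.2% of all genes, and ranked 365 among 18417 genes ordered from the largest rise down. The uninduced level was dim, whereas the induced mean of 8.05 lay above the markers' median; the part of array background in the size of the fold was not tested. In bulk RNA, more cells expressing ERBB4 and more of its RNA per cell cannot be told apart. ERBB4 was called higher in all 12 alternative settings, but in the setting that left out genes with a mean level under 6.78 it was kept only through its induced arrays, so that the call there adds nothing. The log2 fold changes were from 1.755 to 1.875.

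EGFR, the receptor of EGF and TGFA, had levels of 8.99 and 8.89 uninduced and 9.53 and 9.69 induced. All induced values exceeded all uninduced ones. EGFR rose 1.59-fold (log2 fold change 0.67, SE 0.095, 95% interval 0.45 to 0.89, adjusted p = 0.000745 in limma's test). Its call held in all 12 alternative settings, with log2 fold changes from 0.59 to 0.75 and a highest adjusted p of 0.0499 in limma's tests. The intervals of ERBB4 and EGFR did not overlap.

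ERBB2, the partner receptor without a known ligand, had levels of 7.85 and 7.80 uninduced and 8.01 and 7.74 induced. The induced arrays lay on either side of the uninduced ones, and the log2 fold change was 0.050 (95% interval -0.20 to 0.30, adjusted p = 0.767 in limma's test). ERBB3, the receptor with a weak kinase, had levels of 6.56 and 6.63 uninduced and 6.48 and 6.50 induced. The values did not overlap, but the log2 fold change of -0.105 (95% interval -0.30 to 0.090, adjusted p = 0.371 in limma's test) did not pass. ERBB3 was close to the dim level throughout. The intervals of both genes leave out changes as large as that of EGFR. Non-overlapping groups were found for 7 of the 9 members and for 66.8% of all genes, so that separation of the groups alone says little here.

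**Figure D2:**
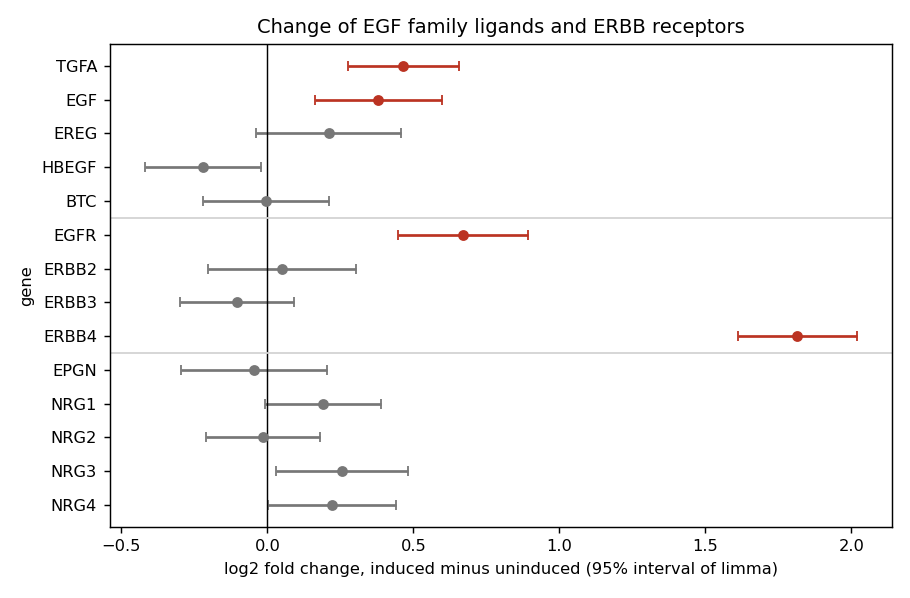
Log2 fold change, induced minus uninduced, with limma's 95% interval, for ligands (top), receptors (middle) and the other EGF family ligands (bottom). Red marks genes called higher at an adjusted p under 0.05. ERBB4 lies at 1.815, EGFR at 0.67, TGFA at 0.465 and EGF at 0.38, and no other gene was called.

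The remaining ligands of the family did not pass the test. Of 5 measured, the EGFR ligand gene EPGN (epigen) and the neuregulin genes NRG1 to NRG4, whose products bind ERBB4, ERBB3 or both, 0 rose and 0 fell in limma's test, and 0 passed in the fits that left out an array. NRG1 had levels of 7.42 and 7.48 uninduced and 7.60 and 7.68 induced (log2 fold change 0.19, adjusted p = 0.115 in limma's test). Its second probe set had a log2 fold change of -0.010. NRG3 had levels of 6.20 and 6.39 uninduced and 6.58 and 6.52 induced (log2 fold change 0.255, adjusted p = 0.068 in limma's test). It was dim uninduced and close to the dim level induced (means 6.295 and 6.55). NRG4, at 3.75 and 3.80 uninduced and 3.91 and 4.08 induced, and EPGN, at 3.91 and 4.12 uninduced and 4.05 and 3.89 induced, were dim in both groups. NRG2 had levels of 8.41 and 8.45 uninduced and 8.44 and 8.39 induced, which overlapped. At an unadjusted p under 0.05, 2 of these 5 genes passed. NRG1 and NRG3 were called higher after quantile normalization again (adjusted p = 0.0413 and 0.0436 in limma's test), and NRG3 also after median centring (0.0307). The ligands of ERBB4 in this list thus showed no call under the setting reported, beside the rise of the receptor.

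Genes that release and carry the ligands changed in both directions. Of 10 genes of shedding and trafficking, 4 rose and 4 fell, with a median log2 fold change of 0.1275. That is 80.0% called, against 45.1% of all genes. This list and those below were chosen with earlier results of these data known, so their shares are no result in themselves. FRMD8, which holds the iRhom proteins at the cell surface, had levels of 7.74 and 7.84 uninduced and 10.25 and 10.24 induced, and rose 5.48-fold (SE 0.085 on the log2 scale, adjusted p = 1.1e-06 in limma's test). The iRhom genes RHBDF1 and RHBDF2, whose products carry the protease ADAM17 to the surface, rose 3.31-fold and 3.11-fold. RHBDF1 went from 8.03 and 7.95 to 9.67 and 9.76, and RHBDF2 from 8.17 and 8.18 to 9.79 and 9.83. These 3 genes rose by more, with 95% intervals that did not overlap, than ADAM17 itself, the main sheddase of TGFA and HBEGF, which rose 1.24-fold (levels 10.31 and 10.37 uninduced, 10.59 and 10.71 induced). The call of ADAM17 (adjusted p = 0.0228 in limma's test) ended without uninduced array 1 (0.181), uninduced array 2 (0.13) or induced array 2 (0.0803), over all rows (0.0538) and against a fold of 1.2 (0.724). ADAM10, the protease that releases EGF and BTC, fell by 0.885 on the log2 scale, from 11.52 and 11.49 to 10.61 and 10.63. CNIH1, an export receptor that loads TGFA-like cargo in the endoplasmic reticulum, fell by 0.82, and TMED10, a cargo receptor of the early secretory pathway, fell by 0.43. MMP14, a membrane metalloprotease, fell by 0.44. The 4 genes that fell numbered 2 when uninduced array 1 was left out.

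Adaptors and signal carriers below the receptors were higher or not called. Of 27 measured among 35 listed, 14 rose (6 by 2-fold or more) and 0 fell, and the median log2 fold change was 0.305. That is 51.9% called, all upward. Of all genes, 20.6% were called upward and 45.1% in either direction. Because the list was chosen with earlier results of these data known, its share is no result in itself. Most genes on these lists were not dim. In the separate fit without genes under a mean level of 6.78, 62.4% of 12752 genes were called, 3593 of them upward. Of the list genes kept there, 14 rose and 0 fell. PIK3R1, the regulatory subunit that binds phosphorylated receptors for PI3-kinase, had levels of 8.69 and 8.71 uninduced and 10.52 and 10.61 induced, a 3.64-fold rise. GAB1, a docking protein of EGFR, rose 3.62-fold, from 7.43 and 7.77 to 9.40 and 9.51, although its second probe set had a log2 fold change of 0.415. HRAS, a RAS GTPase, rose 3.08-fold, from 8.63 and 8.55 to 10.24 and 10.19. Smaller calls covered SOS2 and SOS1, exchange factors that load RAS, at 2.52-fold and 1.66-fold, and PLCG1, the phospholipase recruited by EGFR, at 1.55-fold. STAT3, PIK3R3 and STAT5B, also on the list, rose 2.67-fold, 2.03-fold and 1.64-fold. GRB2, the adaptor that brings SOS to the receptor, had levels of 9.60 and 9.68 uninduced and 9.50 and 9.59 induced and did not pass. The kinases MAP2K1 and MAPK3 had log2 fold changes of 0.080 and 0.095 and did not pass either. The count of 14 fell to 9 without uninduced array 1 or 2, and to 9 against a fold of 1.2.

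Genes of receptor attenuation and endocytosis split. The list holds endocytosis genes too, so the counts are not of genes that dampen the receptors alone. Of 33 measured among 34 listed, 10 rose and 9 fell, with a median log2 fold change of -0.050 and 57.6% called. In the same fit 45.1% of all genes were called. In the separate fit without genes under a mean level of 6.78, 62.4% of genes were called. Of the list genes kept there, 10 rose and 10 fell. SPRY4, a Sprouty inhibitor of RAS-ERK signalling, fell by 2.485 on the log2 scale (SE 0.090, adjusted p = 1.2e-06 in limma's test), from 10.22 and 10.11 to 7.63 and 7.73. ERRFI1, whose product MIG6 binds and blocks the EGFR kinase, fell by 1.715, from 11.42 and 11.35 to 9.66 and 9.68. SPRY1, another Sprouty gene, rose 2.69-fold, from 8.26 and 8.26 to 9.59 and 9.78. LRIG1, a membrane protein that promotes ERBB receptor turnover, had levels of 8.22 and 8.35 uninduced and 7.36 and 7.28 induced and fell by 0.965. The ubiquitin ligase gene CBL fell by 0.495, whereas its relative CBLB rose 2.19-fold. Members of the same families thus moved apart, SPRY1 from SPRY4 and CBLB from CBL. The count of 10 that rose was 6 without uninduced array 2.

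Genes often induced by ERK, the kinase at the end of the RAS cascade, also went both ways. Of 22 listed and measured, 6 rose and 10 fell, with a median log2 fold change of -0.20. That is 72.7% called, against 45.1% of all genes. Again the list was chosen with earlier results known, so the share is no result in itself. In the separate fit without genes under a mean level of 6.78, 62.4% of genes were called. Of the list genes kept there, 6 rose and 11 fell. EGR1, an immediate early transcription factor, went from 8.42 and 8.46 to 11.14 and 11.25. CCND1, cyclin D1, fell by 1.645, from 10.75 and 10.70 to 9.14 and 9.02. SPRY4, named above, is also on this list, as are SPRY2, SPRED1 and SPRED2 from the list of receptor attenuation and endocytosis. Of these shared genes, SPRY4 and SPRED1 were called lower and SPRY2 higher, so the counts of both lists overlap. DUSP6, the ERK phosphatase, went from 8.41 and 8.41 to 7.43 and 7.56 and fell by 0.915, and ETV5, an ETS factor, fell by 0.93. EPHA2, an ephrin receptor gene, rose 2.32-fold and DUSP5, a nuclear ERK phosphatase, 1.75-fold. IER3 has 3 probe sets, and all were lower on the induced arrays, with log2 fold changes of -0.54 for the brightest and -0.56 for the others. Those others had the same value as each other on every array, so they are not separate measurements. Both phosphatase genes of this list that were called thus moved in opposite directions.

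**Figure D3:**
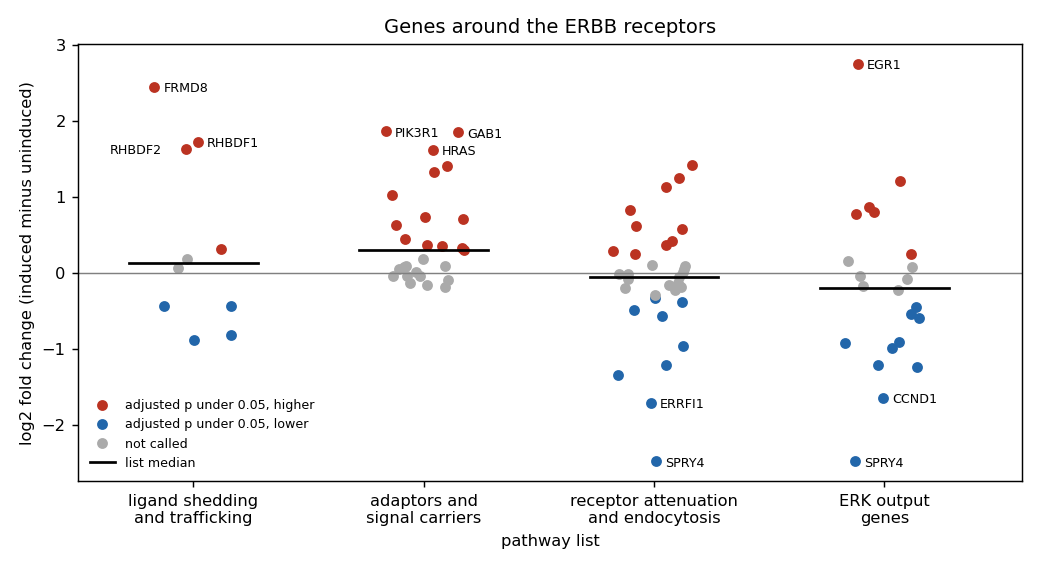
Log2 fold change of each measured gene in 4 lists around the ERBB receptors. Red points were called higher, blue points lower and grey points not called, black bars are list medians, and names mark changes beyond 1.5 log2 units. The adaptor list has 14 red and 0 blue points, while the other lists hold both colours.

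The ligand genes EPGN, EREG, AREG and BTC follow each other on chromosome 4, next to a group of chemokine genes. EPGN, EREG and BTC were not called, nor were PARM1, beside BTC, ODAPH or the chemokine genes PPBP, CXCL5 and CXCL3. CXCL2, a neutrophil chemokine gene, fell by 1.085, from 7.99 and 7.94 to 6.87 and 6.89, and MTHFD2L, a mitochondrial folate enzyme gene next to EPGN, fell by 0.605. Past PARM1, RCHY1, which encodes the p53 ubiquitin ligase PIRH2, rose 1.47-fold, THAP6 fell by 0.49 and CDKL2, a kinase gene, rose 2.31-fold from a dim level. Of the neighbours other than EREG and BTC, 2 rose and 3 fell, while 45.1% of all genes were called in either direction. These calls are therefore no result about the region. Of the 2 neighbours that rose, 1 was called without uninduced array 1 and 1 without uninduced array 2, and of the 3 that fell, 1 was called without uninduced array 2. The ligand genes were dim, unlike CXCL2 and RCHY1, so a small change of the former could go undetected.

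**Figure D4:**
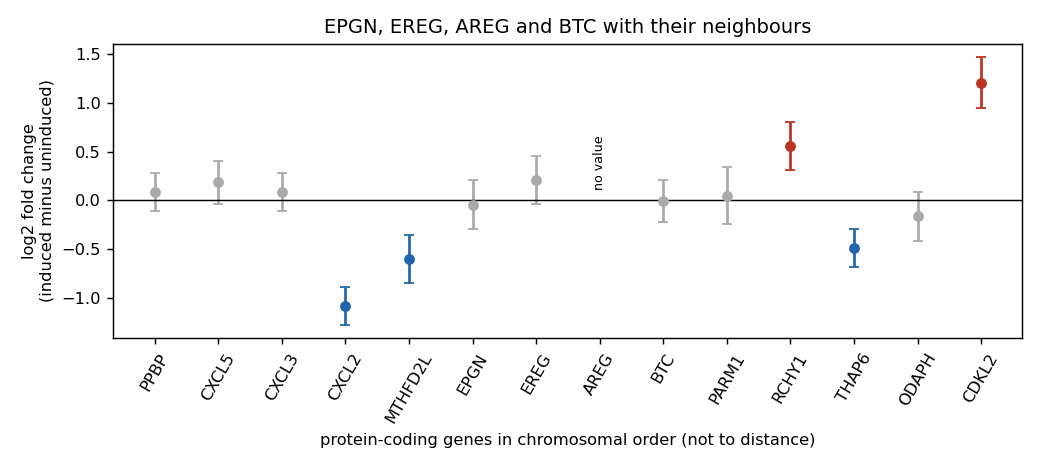
Log2 fold change with limma's 95% interval for the protein-coding genes from PPBP to CDKL2, in their order on chromosome 4 (RefSeq, GRCh38.p14), not spaced by distance. Red was called higher, blue lower and grey not called, and AREG has no value. The 3 measured ligand genes lie between -0.045 and 0.21.

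Profiles like those of the 4 called genes were sought by the Euclidean distance between values centred on each gene's mean over the 4 arrays. Nearest to ERBB4 were LAMTOR2, LRP1 and TEAD3, at distances of 0.030, 0.033 and 0.041 log2 units. Nearest to EGFR were RTL8C (0.0087), LRRC38 and PLPP1. TGFA lay closest to SMIM19, TFAP2A and ARFIP2 (each 0.022), and EGF to ZNF488 (0.010), GLTP and GCNT3. With 4 arrays in 2 groups, such likeness reflects little more than a change of like size.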

How the data were processed

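Biotin-labelled cDNA of total RNA was hybridised to an Affymetrix gene array, per the labels' protocols. The deposited values are log2 levels of probe sets, 2.26 to 14.3; they come from RMA in Affymetrix Expression Console, per the submitters' processing notes. RMA equalises the arrays' distributions, so a shift of all transcripts would be hidden, and it compresses changes of dim genes. The genome build, settings and versions were not given in the sources used here.

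Of 33297 rows, 19460 had 1 gene symbol in the platform annotation, 1754 several and 12083 none; only the first were named, with symbols updated by gene ID in RefSeq (19429 matched). The brightest probe set by mean represented each of 18417 genes; each measured member had 1. limma 3.58.1 in R 4.3.3 fitted induced against uninduced arrays (lmFit, eBayes, two-sided, 7.20 total degrees of freedom), and a gene was called at a Benjamini-Hochberg adjusted p under 0.05 over all genes. Precision is limited by the number of arrays, 2 a group. Arrays of a group correlated at 0.995 or more across genes, and no 2 arrays were identical. The fit was also run on simulated data with independent arrays and variances drawn from limma's own fit. That run does not bear on the spread between cultures.

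The members and lists were chosen with earlier results of these data known. Genes named were all members, the other EGF family ligands, the 3 called genes of largest change in each other list, the 3 nearest profiles, and CDKN1A and MDM2. Other genes named, ADAM17, ADAM10 and LRIG1 among them, were chosen after their values were seen. Promoter windows came from RefSeq (GRCh38.p14) and were searched, like the figures drawn, in Python 3.11.15 with pandas 2.3.3 and matplotlib 3.10.9. The alternatives varied the normalization, dim probe sets, the probe set per gene, the rows tested, the prior, the threshold, a replicate block and the arrays used.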

Additional observations from a re-analysis of the deposited data

Results flagged for a closer look

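GAB1, the docking protein of EGFR, has a second probe set that the comparison of genes did not use. It had levels of 7.12 and 7.29 on the uninduced arrays and 7.70 and 7.54 on the induced arrays, a log2 fold change of 0.415 (adjusted p = 0.0392 in limma's test over all rows of the table). The brighter probe set had one of 1.855. Both pointed upward with different sizes, and the mean of both gave 1.135. With 2 arrays a group, outlying arrays could not be looked for.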

How the results depend on the processing

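ERBB4 and EGFR kept their call in all 12 alternative settings; with genes under a mean level of 6.78 left out, ERBB4 was kept only through its induced arrays, so that setting does not support its call. Of the values of the 9 members under the alternatives, 94 kept their side of the threshold, 8 lost the call (EGF or TGFA) and 2 gained it (HBEGF). No called gene among those followed reversed. Against a fold of 1.2, 2 members rose, as did 9 adaptors and 6 genes of receptor attenuation and endocytosis, and 2 shedding genes fell. With the intensity trend and robust prior, 1 member and 1 adaptor fell. Without genes under that level, the 40th percentile, 5 of the 9 members were tested and 1 fell. Among the other EGF family ligands, 2 rose after quantile normalization again and 1 after median centring. Leaving out an array gave 2 to 4 members higher, 9 to 12 adaptors higher, 6 to 8 attenuation genes higher and 6 to 9 lower, 2 to 4 shedding genes lower, and 1 to 2 neighbours on chromosome 4 higher and 1 to 3 lower. The cause was not tested, beyond the smaller number of arrays and of genes tested by construction.

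The labels give both groups the numbers 1 and 2, but nothing says what a number shares. The differences between the arrays of a group correlated at 0.22 across genes. With the replicate block, 42.5% of genes were called instead of 45.1%, and EGF had an adjusted p of 0.0567 in limma's test with its log2 fold change still at 0.38; no other member's call changed. Low levels limit what can be said of EGF, EREG, BTC and ERBB3.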
